A study of Homo sapiens with 4 samples.

Results

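SIK2 and MARK2 are protein kinases of the AMPK-related family, and the regions described here are all those that the authors list as closest to either gene. There were 3 such regions among 5326, 1 nearest to SIK2 and 2 nearest to MARK2. The 2 genes were chosen by measured values: the ratio of HNF4A reads to IgG reads had been seen to move in opposite directions with glucose. That ratio and the reads behind it are therefore given as a description, with no test.

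AMPK-related kinases share a catalytic domain with AMPK and are switched on by LKB1, the product of STK11, which phosphorylates their activation loop. SIK2, a salt-inducible kinase, phosphorylates the CRTC coactivators of CREB and class IIa histone deacetylases, which then stay bound to 14-3-3 proteins in the cytoplasm, and protein kinase A inhibits it. In hepatocytes, salt-inducible kinases are known for restraining gluconeogenic genes. MARK2, also called PAR-1b, phosphorylates microtubule-associated proteins and takes part in the polarity of epithelial cells, hepatocytes included.

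The study addressed which genes HNF4A, a nuclear receptor of hepatocytes, occupies when glucose supply differs. Chromatin immunoprecipitation followed by sequencing was done in HCCLM3, an established human hepatocarcinoma line, with an antibody to HNF4A and with nonspecific IgG, at high and at low glucose. Each of these 4 groups had 1 library, so no value below has a replicate. The labels describe stable lines made with a lentiviral vector that carries a CMV promoter, without naming the gene expressed or saying how many clones were used. The growth protocol gives high-glucose medium for all 4 libraries, and the low glucose level is named in the titles alone. Occupancy data give no expression of marker genes, so the identity of the line was not checked. Over the 5326 regions the libraries held 198683 to 402237 reads, and the median region held 50 HNF4A and 26 IgG reads at high glucose, and 35 and 18 at low glucose. Scaled reads are reads divided by relative library size, which ranged from 0.982 to 1.099. Ratios are log2 ratios of scaled reads, and the range after a value is its exact 95% interval, which covers counting error only.

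The region nearest to SIK2 was chr11:111472484-111474060 in hg19, 1577 bp long. MARK2 had a first region at chr11:63606162-63607031, 870 bp long, and a second at chr11:63655584-63656714, 1131 bp long. The starts of the 2 MARK2 regions lay 49422 bp apart. RefSeq lists 2 transcription starts for MARK2 in GRCh38.p14, spaced by 49427 bp. These 2 spacings differed by 5 bp. By their centres the regions lay 49552.5 bp apart, and the gap between them was 48552 bp. Since the files use hg19 and positions were not carried between builds, no region was placed on a start, exon or intron.

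The 250 bases before each annotated start are shown to compare the start of SIK2 with the 2 starts of MARK2. They come from RefSeq in GRCh38.p14, from the plus strand and written 5′ to 3′, with matches to the searched motifs in capitals.
SIK2, chr11:111602199-111602448: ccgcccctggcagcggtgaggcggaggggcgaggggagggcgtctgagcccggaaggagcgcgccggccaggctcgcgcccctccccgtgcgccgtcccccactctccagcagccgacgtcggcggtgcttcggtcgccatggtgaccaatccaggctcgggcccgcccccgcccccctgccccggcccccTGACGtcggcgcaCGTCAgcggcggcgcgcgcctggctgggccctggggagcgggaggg
MARK2, first start, chr11:63838860-63839109: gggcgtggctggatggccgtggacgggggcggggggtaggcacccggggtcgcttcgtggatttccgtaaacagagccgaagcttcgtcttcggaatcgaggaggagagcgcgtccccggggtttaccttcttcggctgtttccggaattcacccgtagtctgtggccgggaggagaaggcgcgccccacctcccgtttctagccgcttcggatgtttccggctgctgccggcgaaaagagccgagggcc
MARK2, second start, chr11:63888287-63888536: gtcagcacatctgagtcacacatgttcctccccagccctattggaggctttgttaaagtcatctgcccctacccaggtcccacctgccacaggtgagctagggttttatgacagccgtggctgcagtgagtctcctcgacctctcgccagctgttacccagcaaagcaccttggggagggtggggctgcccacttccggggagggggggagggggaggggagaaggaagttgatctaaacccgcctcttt

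The stretch before SIK2 was 80% G or C with 34 CG pairs. The first MARK2 stretch was 65.6% G or C with 28 CG pairs, and the second 59.2% with 5. Over 35116 RefSeq promoters cut to the same 250 bases, the median was 58% G or C and 11 CG pairs. The motifs searched on both strands were the HNF4 element CAAAGTCCA, the nuclear receptor site AGGTCA, the E-box CACGTG, the cAMP response element TGACGTCA and its core TGACG, which the full element contains. SIK2 held 2 matches to TGACG, a motif present in 21.2% of all those promoters. No other match was found in the 3 stretches. CAAAGTCCA was present in 0.325% of all promoters of this length, AGGTCA in 12.1%, CACGTG in 6.34% and TGACGTCA in 1.65%. These matches describe letters in a window and do not show binding.

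At SIK2, HNF4A reads differed between the glucose levels while IgG reads were similar. The SIK2 region held 73 HNF4A reads and 35 IgG reads at high glucose. At low glucose it held 21 HNF4A reads and 38 IgG reads. HNF4A was the higher of the pair at high glucose and the lower at low glucose. In scaled reads the order was HNF4A at high glucose at 66.4 (52.1 to 83.5), IgG at low glucose at 38.7 (27.4 to 53.1), IgG at high glucose at 35.3 (24.6 to 49.0) and HNF4A at low glucose at 21.0 (13.0 to 32.1). Each interval overlapped that of its neighbour in this order, while those of the 2 HNF4A libraries did not overlap.

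The log2 ratio of HNF4A over IgG at SIK2 was 0.91 (0.31 to 1.54) at high glucose and -0.88 (-1.72 to -0.08) at low glucose. The ratio was thus 1.80 (0.76 to 2.84) log2 units higher at high glucose. Of the 5326 regions, 100 had a larger difference. HNF4A alone stood at 1.66 (0.95 to 2.44) for high over low glucose, a 3.16-fold excess that 19 regions exceeded. IgG stood at -0.13 (-0.84 to 0.57) for the same comparison.

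Per kilobase, the SIK2 region separated from others at low glucose rather than at high glucose. Its scaled HNF4A level was 42.1 reads per kb at high glucose, against a median of 41.7 over all regions. At low glucose it was 13.3 reads per kb, where the median was 33.1 and 5282 of the 5326 regions held more. IgG there was 22.4 reads per kb at high glucose, where the median was 25.1, and 24.5 at low glucose, where it was 17.0.

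**Figure D1:**
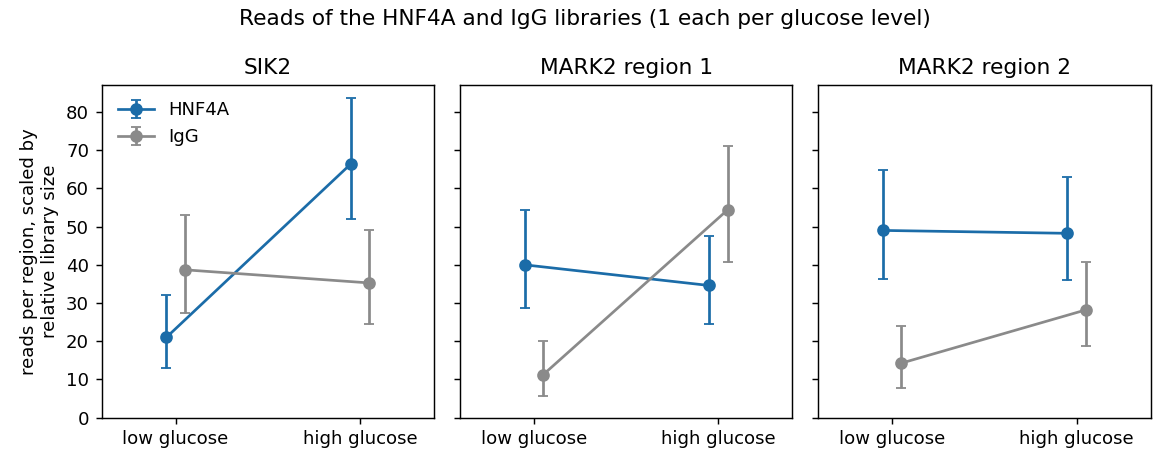
Reads per region scaled by relative library size (vertical axis) at low and high glucose, for HNF4A (blue) and IgG (grey), with 1 library per point and exact 95% Poisson intervals as bars. HNF4A changes at SIK2, from 21.0 to 66.4, while at the first MARK2 region IgG changes, from 11.2 to 54.4. At the second MARK2 region IgG goes from 14.3 to 28.2, with intervals that overlap.

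At the first MARK2 region, IgG reads differed between the glucose levels while HNF4A reads were similar. The first MARK2 region held 38 HNF4A reads and 54 IgG reads at high glucose. At low glucose it held 40 HNF4A reads and 11 IgG reads. HNF4A reads were close to each other at both glucose levels, and IgG at low glucose stood apart as the lowest of the 4. In scaled reads IgG at high glucose was 54.4 (40.9 to 71.0), HNF4A at low glucose 40.0 (28.6 to 54.5), HNF4A at high glucose 34.6 (24.5 to 47.5) and IgG at low glucose 11.2 (5.59 to 20.0). The intervals of the first 3 overlapped, and that of IgG at low glucose overlapped none of them.

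The ratio over IgG at the first MARK2 region was -0.65 (-1.29 to -0.03) at high glucose and 1.84 (0.85 to 2.95) at low glucose. The difference was -2.49 (-3.76 to -1.28), and 52 of the 5326 regions had a lower one. The HNF4A ratio of high to low glucose was -0.21 (-0.89 to 0.47). IgG for the same comparison was 2.28 (1.33 to 3.36), a 4.86-fold excess at high glucose that 81 regions exceeded. At high glucose this region had 62.5 scaled IgG reads per kb, against a median of 25.1, and 241 regions held more. Its HNF4A level there was 39.8 reads per kb, near the median of 41.7.

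The second MARK2 region held 53 HNF4A reads and 28 IgG reads at high glucose. At low glucose it held 49 HNF4A reads and 14 IgG reads. Unlike at the first region, HNF4A exceeded IgG in both glucose states, but at high glucose it was 0.02 below the median ratio of all regions. The ratio over IgG was 0.77 (0.09 to 1.49) at high glucose, against 1.78 (0.90 to 2.75) at low glucose. The difference was -1.01 (-2.21 to 0.16), with a counting interval that included 0. The HNF4A ratio of high to low glucose was -0.02 (-0.61 to 0.57), and IgG was 0.98 (0.01 to 2.02). A larger IgG ratio was found in 1070 regions, and the median was 0.51. Scaled IgG reads were 28.2 (18.7 to 40.8) at high glucose and 14.3 (7.79 to 23.9) at low glucose, with intervals that overlapped.

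The 2 MARK2 regions had nearly the same ratio over IgG at low glucose, 1.84 and 1.78, and nearly the same HNF4A level per kb, 46.0 and 43.3 there and 39.8 and 42.7 at high glucose. They differed at high glucose in IgG, at 62.5 and 24.9 reads per kb. With the reads of both regions summed, MARK2 had 91 HNF4A and 82 IgG reads at high glucose, and 89 and 25 at low glucose. The summed ratio over IgG was 0.00 (-0.44 to 0.45) at high glucose, against 1.81 (1.15 to 2.51) at low glucose, a difference of -1.80 (-2.64 to -0.99). That sum pools regions whose own differences were -2.49 and -1.01. The SIK2 difference of 1.80 came with HNF4A at 1.66 for high over low glucose, and the summed MARK2 one with IgG at 1.70.

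**Figure D2:**
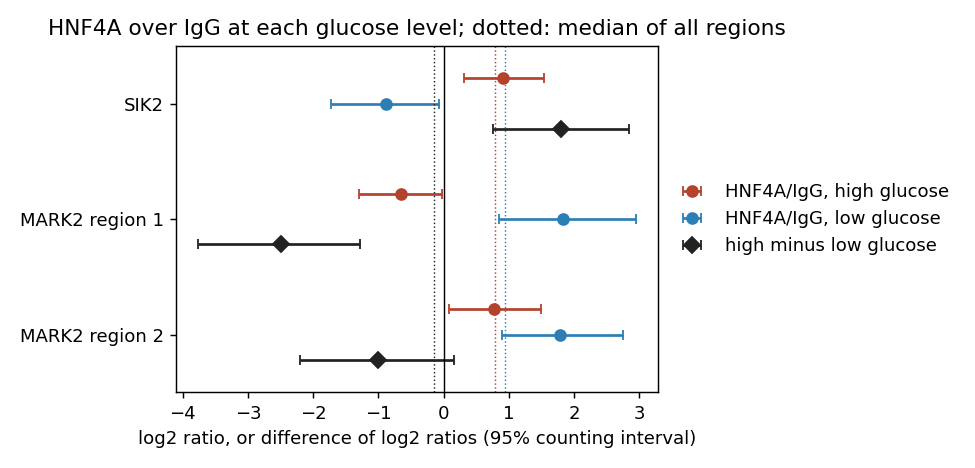
Log2 ratio of HNF4A over IgG at high glucose (red) and low glucose (blue), and their difference (black diamonds), for the 3 regions, with exact 95% counting intervals as bars and the medians of all 5326 regions as dotted lines. SIK2 lies at 0.91 and -0.88, the first MARK2 region at -0.65 and 1.84, and the second at 0.77 and 1.78.

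Against all regions, a ratio of at least 2-fold was used as the threshold, since each group had 1 library. At high glucose 0 of the 3 regions were at least 2-fold above IgG, where 41.6% of all regions were, and 0 were at least 2-fold below, where 1.05% were. At low glucose 2 of 3, both of MARK2, were at least 2-fold above IgG, against 46.8% of all regions, and 0 were at least 2-fold below, against 0.488%. For HNF4A at high over low glucose, SIK2 was the 1 region of the 3 past 2-fold, where 6.78% of all regions were higher and 0.713% lower. For IgG, the first MARK2 region was past 2-fold, where 19.4% of all regions were higher and 3.38% lower. The difference of ratios was at least 2-fold higher at high glucose in 8.49% of all regions and at least 2-fold lower in 11.9%. SIK2 fell in the former set and both MARK2 regions in the latter, the second by a margin of less than 0.01. All these comparisons share libraries, and the choice of genes used them, so nothing is read from the counts.

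The counts depend on the scaling. Scaled by total reads over all regions, the first MARK2 region was at least 2-fold below IgG at high glucose, at -1.19, and SIK2 at low glucose, at -1.43. Centred on the median of all regions both were as well, at -1.44 and -1.82, and 0 of the 3 regions were then 2-fold above IgG at low glucose. Without scaling, SIK2 at high glucose was 2-fold above IgG, at 1.06, and the second MARK2 region reached 2-fold in IgG. The second MARK2 region fell short of 2-fold in the difference of ratios without scaling, with centring and with 1 read added.

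The shares of all regions past 2-fold moved too. Centred on the median of all regions, they became 17.9% higher and 9.31% lower for the ratio at high glucose, and 13.4% and 7.32% at low glucose. For HNF4A at high over low glucose they became 1.69% and 2.01%, and for IgG 6.21% and 7.81%. Scaled by total reads over all regions, they became 23.9% and 4.41% for the ratio at high glucose. On that scale they were 2.05% and 1.78% for HNF4A and 9.44% and 5.78% for IgG at high over low glucose.

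Most regions lay above IgG at both glucose levels, with median ratios of 0.79 at high and 0.94 at low glucose. Centred on those medians, SIK2 stood at 0.12 and -1.82, the first MARK2 region at -1.44 and 0.90, and the second at -0.02 and 0.84, so the second changed sign at high glucose. HNF4A and IgG both had more reads at high glucose in the median region, by 0.36 and 0.51 log2 units. Relative to those medians, HNF4A and IgG at high over low glucose stood at 1.31 and -0.64 for SIK2, at -0.56 and 1.77 for the first MARK2 region, and at -0.38 and 0.47 for the second. The difference of ratios became 1.94, -2.34 and -0.86 in the same order, against a median of -0.15. Being above IgG at high glucose and below it at low glucose, as SIK2 was, occurred in 237 regions, 4.45% of all. The reverse, as in the first MARK2 region, occurred in 628, or 11.8%. After centring, 50% of regions lay above 0 at each glucose level. The 2 patterns were then equally common by construction, each in 12.7% of all regions. Among the 636 regions whose ratio was at least 2-fold lower at high glucose, the log2 change of IgG was larger in size than that of HNF4A in 595, or 93.6%, as it was in both MARK2 regions. Among the 452 that were at least 2-fold higher, the change of HNF4A was the larger in 238, or 52.7%, as it was at SIK2. These sizes were compared without centring, where the median changes of HNF4A and IgG were 0.36 and 0.51. The same share over all regions was not counted, so nothing is read from these 2 shares.

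**Figure D3:**
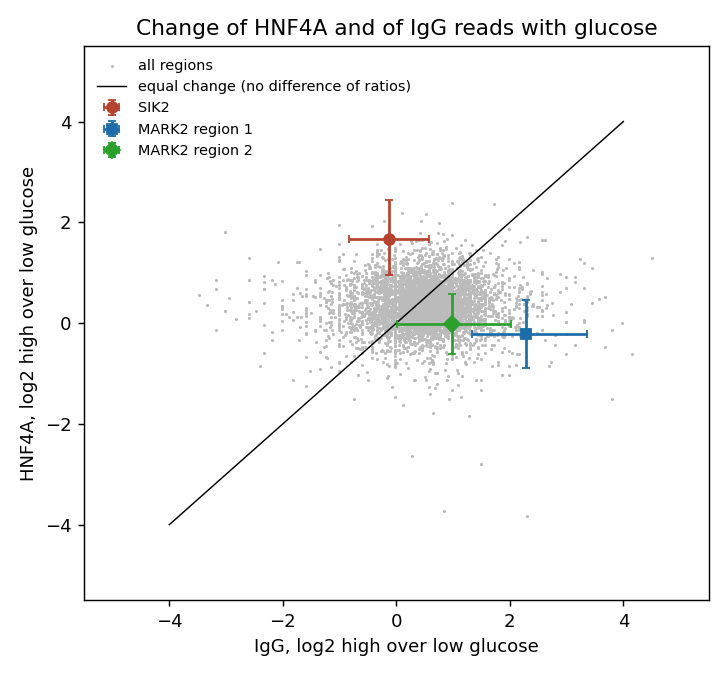
Log2 change of HNF4A reads (vertical axis) against that of IgG reads (horizontal axis), high over low glucose, for 5326 regions (grey) and the 3 regions of SIK2 and MARK2 with exact 95% counting intervals. SIK2 lies above the line of equal change, at -0.13 for IgG and 1.66 for HNF4A, and the MARK2 regions lie below it, at 2.28 and 0.98 for IgG.

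Genes with exactly 2 regions numbered 498. In 275 of them, 55.2%, both regions differed in the same direction, as in MARK2. In 5 of the 498, both were at least 2-fold lower at high glucose, and MARK2 was among those by the narrow margin of its second region. It was not among them without scaling, with centring or with 1 read added, where 4, 3 and 3 genes were counted. Over all regions, 41.7% had a difference above 0, and 11.9% were at least 2-fold lower at high glucose. How often pairs of unrelated regions would go together at those shares was not computed. The 275 and the 5 genes therefore do not show that regions of the same gene go together more often than others.

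SIK2 and MARK2 both lie on chromosome 11, whose 299 regions had median ratios of 0.71 at high and 1.02 at low glucose and a median difference of -0.19, against -0.15 over all regions. The 6 closest regions of other genes around SIK2, 3 on each side, lay 242 to 3481 kb away and were those of MIR4491, RDX, ACAT1, TIMM8B, PTS and TTC12. Their differences ranged from -2.66 to 0.64, and 2 of the 6 were above 0. Their HNF4A ratios of high over low glucose ranged from -0.19 to 0.82, all below the 1.66 of SIK2, as were 5306 of all regions. The 6 closest regions around MARK2 were those of ATL3, RTN3, C11orf95, RCOR2, MACROD1 and ESRRA, within 466.6 kb of its first region. Their IgG ratios of high over low glucose ranged from 0.18 to 1.44. All were below the 2.28 of the first MARK2 region, as were 5244 of all regions. The 0.98 of the second region lay inside the range of these neighbours. Their differences ranged from -1.24 to 0.00.

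The regions most like each member were sought by the distance between log2 scaled reads over the 4 libraries, each centred on its own mean, among regions of similar level. For SIK2 they were nearest to SHCBP1, at a distance of 0.30 log2 units, SLC16A11, THNSL1, SDK1 and C12orf57, the last at 0.48, of 3410 candidates. The SHCBP1 region held 40 HNF4A and 18 IgG reads at high glucose, and 14 and 24 at low glucose. For the first MARK2 region they were RICTOR, at 0.18, OGFOD3, ARRDC1, ASB7 and SPEN, at 0.36, of 3603 candidates. RICTOR, which encodes a component of mTORC2, held 22 HNF4A and 29 IgG reads at high glucose, and 24 and 7 at low glucose. For the second MARK2 region they were TSNAXIP1, at 0.08, PHLDB3, LBR, HIST1H4C and RAPH1, at 0.12, of 3589 candidates.

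The levels of related genes are read against a background in which 84.2% of all regions exceeded IgG under high glucose and 91.5% under low glucose, while 41.7% had a difference of ratios above 0. With the region of highest HNF4A level standing for each gene, these shares were 84.2%, 93.3% and 40.0% over 4324 genes. Centring on the medians brings them to 49.1%, 51.0% and 48.3% of genes.

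Of the 13 other AMPK-related kinase genes, 7 had a region: PRKAA2, SIK1, NUAK1, NUAK2, BRSK2, SNRK and MELK. Of these genes 6 were above IgG and 1 below at high glucose, and likewise at low glucose, while 3 and 2 were above it once centred on the medians over all regions. None of the 7 changed side between glucose levels before centring, and 1 did after it. The median difference of the 7 was 0.13, against -0.15 over all regions, with 4 above 0 and 3 below, or 5 above after centring. SIK1, the closest relative of SIK2 with a region, held 63 HNF4A and 16 IgG reads at high glucose, and 36 and 13 at low glucose. Its ratio was above IgG at both levels, with a difference of 0.39 (-0.96 to 1.71).

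NUAK1, a kinase linked to cell adhesion, had the highest HNF4A level of these and a difference of -0.35 (-1.07 to 0.36). NUAK2 stood at 0.25 (-1.05 to 1.52), and MELK, a family member that does not depend on LKB1, at -0.18 (-1.17 to 0.82). The only one of the 7 past 2-fold was PRKAA2, the AMPK alpha 2 subunit gene, at 3.86 (0.65 to 9.38). It rests on an IgG value of 1 read at high glucose, a listed value that may stand for 0.

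**Figure D4:**
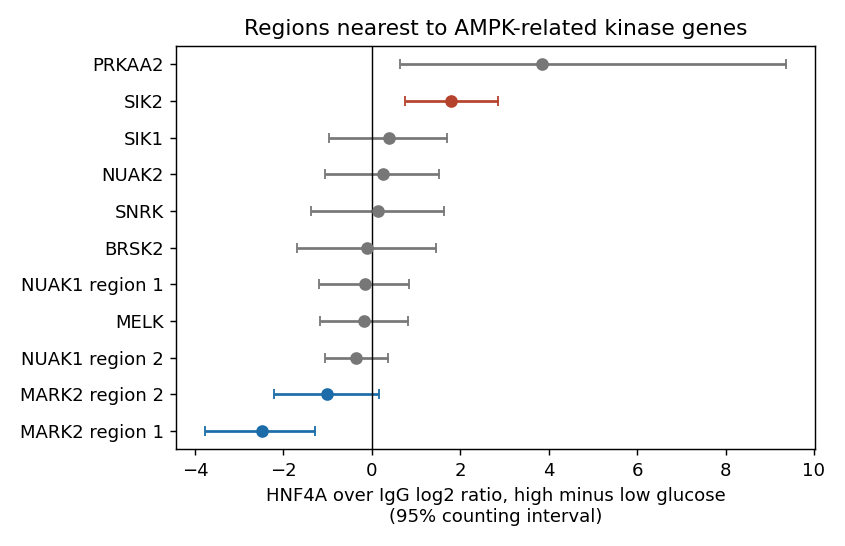
Difference of the log2 ratio of HNF4A over IgG, high minus low glucose (horizontal axis), for each of the 11 regions nearest to AMPK-related kinase genes, with exact 95% counting intervals as bars. SIK2 (red) lies at 1.80 and the MARK2 regions (blue) at -1.01 and -2.49, while the other regions except that of PRKAA2 lie between -0.35 and 0.39.

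Among 20 genes listed as upstream kinases and scaffolds, 8 had a region, of which 5 exceeded IgG at high and 8 at low glucose, or 4 and 3 after centring. The list included PDK1, a pyruvate dehydrogenase kinase gene with no region here, but not PDPK1, whose region had a difference of 0.68. The median difference of the 8 was -0.26, with 2 above 0 and 6 below. STK11, the gene of LKB1, had 58 HNF4A and 44 IgG reads at high glucose and 38 and 27 at low glucose in its region of highest HNF4A level, a difference of -0.21 (-1.20 to 0.76). A shorter STK11 region of 417 bp held 4 HNF4A and 27 IgG reads at high glucose, then 13 and 11 at low glucose, and stood at -3.12. CAMKK2 and TAOK3 stood at -0.74 (-1.50 to 0.01) and -0.62 (-1.49 to 0.23). PRKAR1B, a regulatory subunit gene of protein kinase A, stood at 0.81 (-0.36 to 1.98).

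Of these 8 genes, 3 were below IgG at high and above it at low glucose, like the first MARK2 region and 11.8% of all regions: PRKAR1A, STRADA and PRKCI, named here after their values were seen. The count was 2 without scaling, and 1 when scaled by total reads or centred. With the mean of its regions standing for each gene, the count was 4. PRKAR1A and STRADA lay within 0.19 log2 units of IgG at both glucose levels, and PRKAR1A was level with IgG at high glucose, at -0.00035 from 52 and 47 reads. PRKCI, an atypical protein kinase C gene whose product phosphorylates MARK2, held 16 HNF4A and 28 IgG reads at high glucose, and 34 and 13 at low glucose. Its difference was -2.31 (-3.73 to -0.91), and here HNF4A moved as well, at -1.22 for high over low glucose.

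Of 19 genes of SIK substrates and the cAMP response, 5 had a region, and all exceeded IgG in both glucose states, or 4 and 3 of them after centring, with a median difference of -0.01. HDAC7, a class IIa deacetylase, held 105 HNF4A and 92 IgG reads at high glucose, and 103 and 45 at low glucose. Its difference was -1.12 (-1.81 to -0.44). IgG at high over low glucose stood at 1.02 and HNF4A at -0.11, where the medians of all regions were 0.51 and 0.36. ATF1 and CREB1, partners in the cAMP response, stood at -0.01 (-0.84 to 0.83) and -0.02 (-1.40 to 1.31), and HDAC5 at 0.41 (-0.73 to 1.55).

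Of 18 genes of MARK substrates and cell polarity, 4 had a region, and all exceeded IgG in both glucose states, or 3 and 4 of them after centring, with a median difference of -0.63. GAB1, a docking protein, stood at -0.60 (-1.19 to -0.01). PARD6B, a polarity scaffold, stood at 0.55 (-0.46 to 1.57). MAP1B and KIF13B, of microtubules and their motors, stood at -0.66 (-2.20 to 0.82) and -1.41 (-3.68 to 0.60).

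Of the 7 genes of 14-3-3 proteins, 3 had a region, of which 3 exceeded IgG at high and 2 at low glucose, or 1 and 1 after centring, with a median difference of 0.64. SFN stood at 1.64 (0.13 to 3.19) and held 61 HNF4A and 9 IgG reads at high glucose, then 28 and 14 at low glucose. YWHAB stood at 0.64 (-0.14 to 1.42), and YWHAZ at -0.31 (-0.77 to 0.15). A second YWHAZ region, of lower HNF4A level, stood on the other side of 0 at 0.56 (-0.22 to 1.33), and with the mean of its regions standing for each gene 3 of 3 were above 0. YWHAB was also the one gene of 27 in the lists that, like SIK2 and 4.45% of all regions, lay above IgG at high glucose, at 0.54, and below it at low glucose, at -0.10. The count was 3 when scaled by total reads and 5 when centred, and no 14-3-3 gene was among them.

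In the authors' deposited tables, the false discovery rate of the 3 regions ranged from 0.820 to 0.993, and 0 regions of any gene were under 0.05. Closeness to a gene does not show that HNF4A regulates it.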

How the data were processed

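HNF4A and IgG libraries from HCCLM3 cells at high and low glucose were compared, 1 library per group. The submitters' processing notes name hg19 as the build and, as tools, DiffBind, HOMER, MACS, Bowtie 1.1.2 and bcl2fastq. Their settings and how regions were picked were not given in the sources used here. In 3 tables the authors deposited comparisons over the same 5326 regions. Per the file headers they give log2 levels, folds, p-values and FDR values. From the values, the deposited fold is the difference of the log2 levels of both sides.

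With the log undone, 100% of values were whole multiples (within 0.01) of a unit particular to the library, which gave the reads and the relative library sizes. A listed 1 may stand for 0. Tables were joined on position, and the sides of the HNF4A table were told apart by reads equal to those of the other tables in 5326 of 5326 regions. Starts, counted from 0 in the files, are printed counted from 1.

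Python 3.11.15 with SciPy 1.17.1 gave exact intervals: Clopper-Pearson for a ratio, conditional for a difference of ratios, Poisson for reads. Without molecular identifiers, PCR copies cannot be counted as independent molecules. Recovery and intervals were tried on simulated reads drawn from the Poisson model that the intervals assume. That simulation held no PCR copies and no spread between replicate libraries, so it cannot show how the intervals cover either. With 1 library per group no test of conditions was made. The design fixed the named genes as all regions of both kinases and up to 4 genes per list by HNF4A level. It also fixed 3 neighbours on each side, and 5 most alike regions within 1 log2 unit of level. PRKAA2, PRKAR1A, STRADA and PRKCI were described outside that rule, since a count singled them out after their values were seen. PDPK1, which was in no list, was given beside PDK1 and also falls outside that rule. The members and lists were chosen with earlier results of these data known.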

Additional observations from a re-analysis of the deposited data

Results flagged for a closer look

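At SIK2 the HNF4A over IgG ratio lay above 0 at high glucose and below 0 at low glucose, a difference of 1.80 log2 units. At the first MARK2 region it lay below 0 at high glucose and above 0 at low glucose, a difference of -2.49. Each sign rests on 1 library per side, and neither difference was tested.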

How the results depend on the processing

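The values of the 3 regions were recomputed 71 times, and 64 stayed inside their own counting interval with 0 reversals of a ratio past 2-fold. Outside it were, centred on the median of all regions, SIK2 at 0.12 and the MARK2 regions at -1.44 and -0.016 over IgG at high glucose, and SIK2 at -1.82 and the second MARK2 region at 0.84 at low glucose. Both MARK2 regions summed gave 0.0040 at high glucose. The second MARK2 difference of -1.01 fell short of 2-fold without scaling, at -0.89, with 1 read added, at -0.96, centred, at -0.86, and with IgG subtracted, at -0.79. Subtraction gave no value for SIK2 or the first MARK2 region, where IgG exceeded HNF4A at one glucose level.

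Shares of all regions past 2-fold moved most. Scaled by total reads over all regions, they were 23.9% above and 4.41% below IgG at high glucose (41.6% and 1.05% in the report), and 24.1% and 2.03% at low glucose (46.8% and 0.488%). On that scale HNF4A at high over low glucose had 2.05% and 1.78%, and IgG 9.44% and 5.78%. Centring gave 17.9% and 9.31%, 13.4% and 7.32%, 1.69% and 2.01%, and 6.21% and 7.81% for these 4 comparisons in turn. Without scaling, HNF4A was higher at high glucose in 12.2%. At 1.5-fold, 3.02% and 1.30% were below IgG at high and low glucose, HNF4A had 28.8% higher and 2.40% lower, IgG 44.4% and 6.85%, and the difference of ratios 17.0% and 25.9%. Keeping the regions of at least median level, 0.150% and 0% were below IgG, 0% were lower for HNF4A and 0.375% for IgG, and the difference had 3.38% and 6.20%.

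Of the 7 other AMPK-related kinase genes, 6 were above IgG at each glucose level, but 3 and 3 when scaled by total reads and 3 and 2 when centred. Of the 27 genes with a region in all 5 lists, 23 and 25 were above IgG, but 15 and 13 when centred. The cause of these moves was not tested, beyond what centring and a lower threshold do by construction. No paired analysis was possible because each group had 1 library. With 11 to 73 reads per library in these regions, intervals of single ratios spanned 1.18 to 2.10 log2 units.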
